A study of Drosophila melanogaster with 4 samples.

Results

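Basement membranes are thin sheets of extracellular matrix that underlie epithelia and wrap muscles, nerves and the gut. Laminin heterotrimers and a network of collagen IV form the sheet, nidogen and the proteoglycan perlecan bind to both, and integrins and dystroglycan anchor cells to it. In the *Drosophila* embryo the migrating hemocytes and the fat body make much of this matrix, and tiggrin, a ligand of the PS2 integrin, collects where muscles attach.

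The 10 genes described here encode the core of that matrix: *Col4a1* and *vkg* (collagen IV), *LanA*, *LanB1* and *LanB2* (laminin), *Ndg* (nidogen), *trol* (perlecan), *Ppn* (papilin), *SPARC* and *Tig* (tiggrin). Their probes were found by the CG number in the array's annotation, control spots left out, and all 10 genes were matched. They had 19 of the 32162 distinct probes on the array. Of these, 17 passed the filter on dim probes, as did 19737 probes of the whole array, which gave 14857 genes and unnamed transcripts tested. The rule that picks their probes uses no measured value.

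RNA of mir-3 ectopic embryos, homozygous for the ectopic expression of the microRNA mir-3, was set against RNA of wild-type w1118 embryos on 4 Agilent arrays that carry both RNAs in different dyes. Both groups were whole embryos in the w1118 background, laid over 2 h at 25 °C and taken 6 to 8 h after laying. The labels name 3 separately isolated biological replicates of each genotype, and a dye-swap array repeats replicate 1. The labels do not name the promoter or driver behind the ectopic expression or the number of embryos in a sample, and no probe name in the files holds mir-3, so the level of the microRNA was not measured. In whole embryos, fewer cells of a type and less RNA per cell cannot be told apart.

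Each array had 45020 spots, none was saturated, and the share of probes clearly over background was 57.6 to 64.7% for mir-3 ectopic RNA and 59.1 to 66.1% for w1118 RNA. Gene ratios of the 3 arrays with mir-3 ectopic RNA in Cy3 correlated with each other at r = 0.941 to 0.945 over 14852 genes, and with the dye swap at 0.752 to 0.800. Genes are not independent replicates, and the arrays share a design. Replicate 1 lay on another slide than replicates 2 and 3. Of the genes named in the study's title, *tin*, the heart and mesoderm factor tinman, was lower, with a log2 ratio of -0.73 ± 0.15 (SD, n = 3; limma adjusted p = 0.000128). *Mef2*, a muscle factor, was higher by 0.16 ± 0.03 (limma adjusted p = 0.0176), a call that 6 of 15 other ways of processing lost. The 5 probes of *Mef2* disagreed, with mean ratios from -0.11 (A_09_P137680) to 0.41 (A_09_P013321).

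Every ratio is log2 of mir-3 ectopic over w1118 by the labelled dyes, which is the opposite direction to the authors' deposited value table. The ratio of a gene is the mean over its kept probes. It was tested against 0 over 3 replicates with limma and Benjamini-Hochberg adjustment over all 14857 genes, with 0.05 as threshold, and replicate 1 is the mean of its 2 arrays. Signals are normalised log2 intensities. A signal depends on the probe, so no order of level between the genes is given.

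*Tig* was lower in mir-3 ectopic embryos on every array, by the largest ratio among the 10 genes. *trol* and *SPARC* were lower by smaller amounts, and *vkg* was higher. The other 6 genes, the laminin chains among them, did not pass the test. So 3 of 10 genes fell, where 24.4% of all genes tested did, and 1 of 10 rose, where 24.3% of all genes did. The share that fell was near that of the whole array, and the share that rose was below it. With only 10 genes, no difference between these shares was tested. The median ratio of the 10 genes was -0.04, against -0.00 over all genes tested, and the median size of the ratio without its sign was 0.07 against 0.14.

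**Figure D1:**
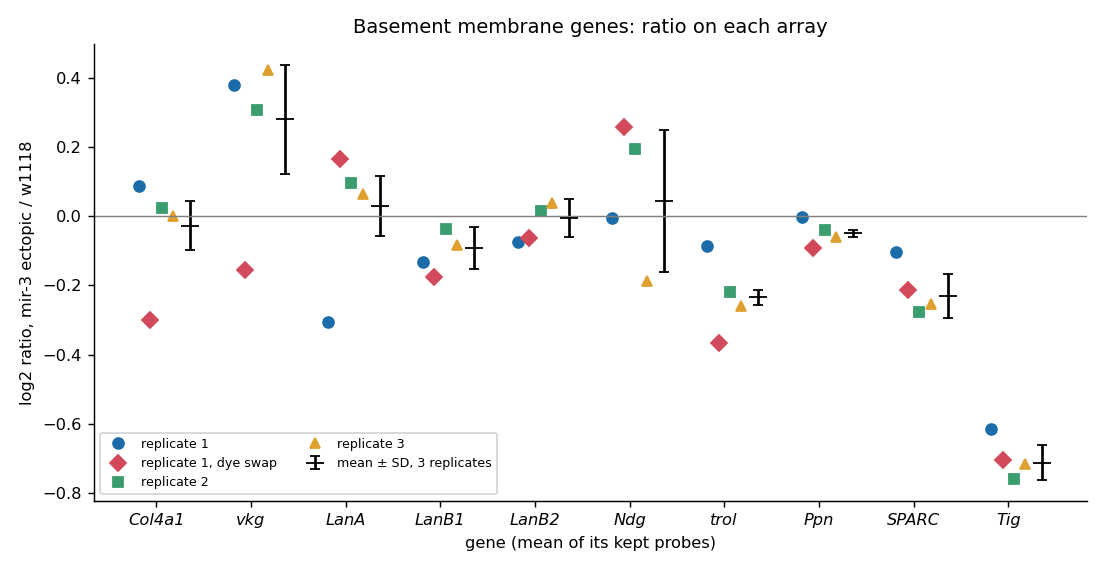
Log2 ratio of mir-3 ectopic over w1118 for each of the 10 basement membrane genes (vertical axis) on each of the 4 arrays, with the mean and SD of 3 replicates in black. *Tig* lies between -0.76 and -0.62 on all arrays, *vkg* is above 0 on 3 arrays and at -0.16 on the dye-swap array, and most other points lie within 0.4 of 0.

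Tiggrin, the product of *Tig*, is an extracellular protein with a binding motif for the PS2 integrin, and flies without it have weakened muscle attachments. The log2 signal of its 1 probe was 9.07, 8.99 and 8.85 in mir-3 ectopic replicates 1, 2 and 3 and 9.03 on the dye-swap array. In w1118 it was 9.68, 9.75 and 9.57, and 9.73 on the dye-swap array. All mir-3 ectopic signals lay below all w1118 signals, with a gap between the groups wider than the range of either. The ratios were -0.62, -0.76 and -0.72 on the arrays of replicates 1, 2 and 3 and -0.70 on the dye swap. *Tig* was thus lower, with a mean log2 ratio of -0.71 ± 0.05 (SD, n = 3; 95% interval -0.81 to -0.61; limma adjusted p = 2.92e-05), or 1.64-fold. Only 2.08% of all genes tested had a lower ratio. The decrease was of like size with mir-3 ectopic RNA in either dye.

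*SPARC* encodes a collagen-binding glycoprotein that hemocytes secrete and that is needed for collagen IV to settle in the embryo's basement membranes. It fell, with a mean log2 ratio of -0.23 ± 0.06 (SD, n = 3; limma adjusted p = 0.00523), or 1.17-fold, with -0.10, -0.28 and -0.26 on the arrays of replicates 1, 2 and 3 and -0.21 on the dye swap. The ratio was below 0 on all 4 arrays, but its 2 probes gave different sizes. Probe A_09_P078681 had log2 signals of 10.52, 10.31 and 10.36 in mir-3 ectopic embryos (10.54 on the dye swap), against 10.83, 10.79 and 10.82 in w1118 (10.66 on the dye swap). These groups did not overlap, and the mean ratio of this probe was -0.39 ± 0.15 (limma adjusted p over all probes 0.00224). Probe A_09_P046066 had signals of 8.94 to 9.41 in mir-3 ectopic embryos and 8.94 to 9.45 in w1118, which overlap. Its ratio was -0.07 ± 0.03 (limma adjusted p = 0.22), so the call on *SPARC* rests on one of its probes.

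*trol* encodes perlecan, the large heparan sulfate proteoglycan of basement membranes. Its ratio was -0.09, -0.22 and -0.26 on the arrays of replicates 1, 2 and 3 and -0.37 on the dye swap, below 0 on every array. The mean was -0.23 ± 0.02 (SD, n = 3; limma adjusted p = 0.00322), a 1.18-fold decrease. This spread over replicates was smaller than that of most genes, since only 6.55% of all genes had a smaller SD. Averaging replicate 1's arrays, at -0.09 and -0.37, gave the value close to those of replicates 2 and 3.

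Of the 6 probes of *trol*, 4 passed the dim filter, and all 4 fell. Their ratios were -0.14 ± 0.04 for A_09_P043046, -0.26 ± 0.08 for A_09_P043041, -0.23 ± 0.09 for A_09_P199340 and -0.31 ± 0.16 for A_09_P199345 (limma adjusted p over all probes 0.0412, 0.00493, 0.00973 and 0.00637). The array's annotation assigns A_09_P043046 and A_09_P199345 to transcript RB and A_09_P043041 and A_09_P199340 to transcript RF. The means of the RF probes differed by less than the SD of either. For A_09_P199345 the log2 signals were 7.08 to 7.14 in mir-3 ectopic embryos and 7.25 to 7.58 in w1118, without overlap, while those of the other kept probes overlapped over the 4 arrays. These are dim probes: the median spot intensity of A_09_P199345 was 66.5 to 148 in mir-3 ectopic embryos and 119 to 178 in w1118, before background correction. The added offset of the background correction pulls ratios of dim probes towards 0. The remaining probes, A_09_P199350 and A_09_P199355, were well above background on 0 arrays in either genotype, with ratios of 0.03 ± 0.05 and 0.01 ± 0.09.

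*vkg* encodes the alpha2 chain of collagen IV and *Col4a1* the alpha1 chain, which assemble into one trimer. They are neighbours in the RefSeq gene order. The log2 signal of the 1 probe of *vkg* was 10.14, 10.47 and 10.40 in mir-3 ectopic replicates 1, 2 and 3 (10.03 on the dye swap), against 9.77, 10.17 and 9.98 in w1118 (10.18 on the dye swap). On the 3 arrays of one dye orientation each mir-3 ectopic signal was above its w1118 partner, on the dye swap it was below, and the groups overlapped. The ratios were 0.38, 0.31 and 0.42, and -0.16 on the dye swap. The mean was 0.28 ± 0.16 (SD, n = 3; 95% interval 0.13 to 0.43; limma adjusted p = 0.0095), a 1.21-fold increase.

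The increase of *vkg* depends on how the dye is handled. Replicate 1, with its arrays averaged, gave 0.11, where replicates 2 and 3, measured in one orientation alone, gave 0.31 and 0.42. With dye as a term the ratio was 0.11 (limma adjusted p = 0.0502), and with replicate 1 taken from its dye swap only it was 0.19 (adjusted p = 0.271). Within the slide of replicates 2 and 3 it was 0.36 (adjusted p = 0.00073). Without replicate 3 it was 0.21 (adjusted p = 0.0653). The fit with dye as a term takes the 4 arrays as independent, though 2 share the RNA of replicate 1, and it leans on 1 dye-swap array.

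*Col4a1* did not pass the test, at -0.03 ± 0.07 (SD, n = 3; 95% interval -0.14 to 0.08; limma adjusted p = 0.65). Its ratios were 0.09, 0.02 and -6.3e-05 on the arrays of replicates 1, 2 and 3 and -0.30 on the dye swap. Its 3 probes differed. A_09_P122515 fell, at -0.22 ± 0.03 (limma adjusted p over all probes 0.00694), with signals of 9.10 to 9.31 in mir-3 ectopic embryos below those of 9.35 to 9.52 in w1118. A_09_P041666 and A_09_P049571 gave 0.06 ± 0.09 and 0.07 ± 0.13 and did not pass (limma adjusted p over all probes 0.351 and 0.37). All 3 are annotated to the same transcript.

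The ratio of *vkg* exceeded that of *Col4a1* by 0.29, 0.28 and 0.42 on the arrays of replicates 1, 2 and 3 and by 0.14 on the dye swap, a mean difference of 0.31 ± 0.10 (SD, n = 3). The chains differed in the same direction on all 4 arrays. An exact two-sided sign permutation test gave p = 0.25, the smallest that 3 replicates allow, and 0.3 after Benjamini-Hochberg adjustment over the 6 pairs of partner genes compared. The ratio of *SPARC* minus that of *Col4a1* was -0.20 ± 0.13 and minus that of *vkg* -0.51 ± 0.21 (exact p = 0.25 each). Both differences changed with the dye orientation. *SPARC* minus *Col4a1* was -0.19, -0.30 and -0.26 on the arrays of replicates 1, 2 and 3, and 0.09 on the dye swap. *SPARC* minus *vkg* was -0.48, -0.58 and -0.68 on those arrays, and -0.06 on the dye swap.

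Both collagen genes, and *LanA*, differed between the 2 arrays of replicate 1 more than most genes. With 1 pair of arrays, dye and array cannot be told apart. For *LanA*, replicates 2 and 3 gave 0.09 and 0.06 in the dye orientation in which replicate 1 gave -0.31. Within replicate 1, the difference between the arrays divided by 2 was 0.27 for *vkg*, 0.19 for *Col4a1* and -0.24 for *LanA*, against a median size of 0.07 over all genes. For *trol* it was 0.14 and for *Ndg* -0.13, while for *Tig*, *SPARC*, *Ppn*, *LanB1* and *LanB2* its size was at most 0.0545. In *SPARC* and *Ppn* this averages probes that shifted in opposite directions. From the first array of replicate 1 to its dye swap, *SPARC* probe A_09_P078681 went from -0.31 to -0.12 and A_09_P046066 from 0.10 to -0.31. *Ppn* probe A_09_P045641 went from 0.05 to -0.25 and A_09_P044201 from -0.06 to 0.06. Replicates 2 and 3 have no dye-swap array, so a dye effect and the genotype cannot be told apart in them alone.

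**Figure D2:**
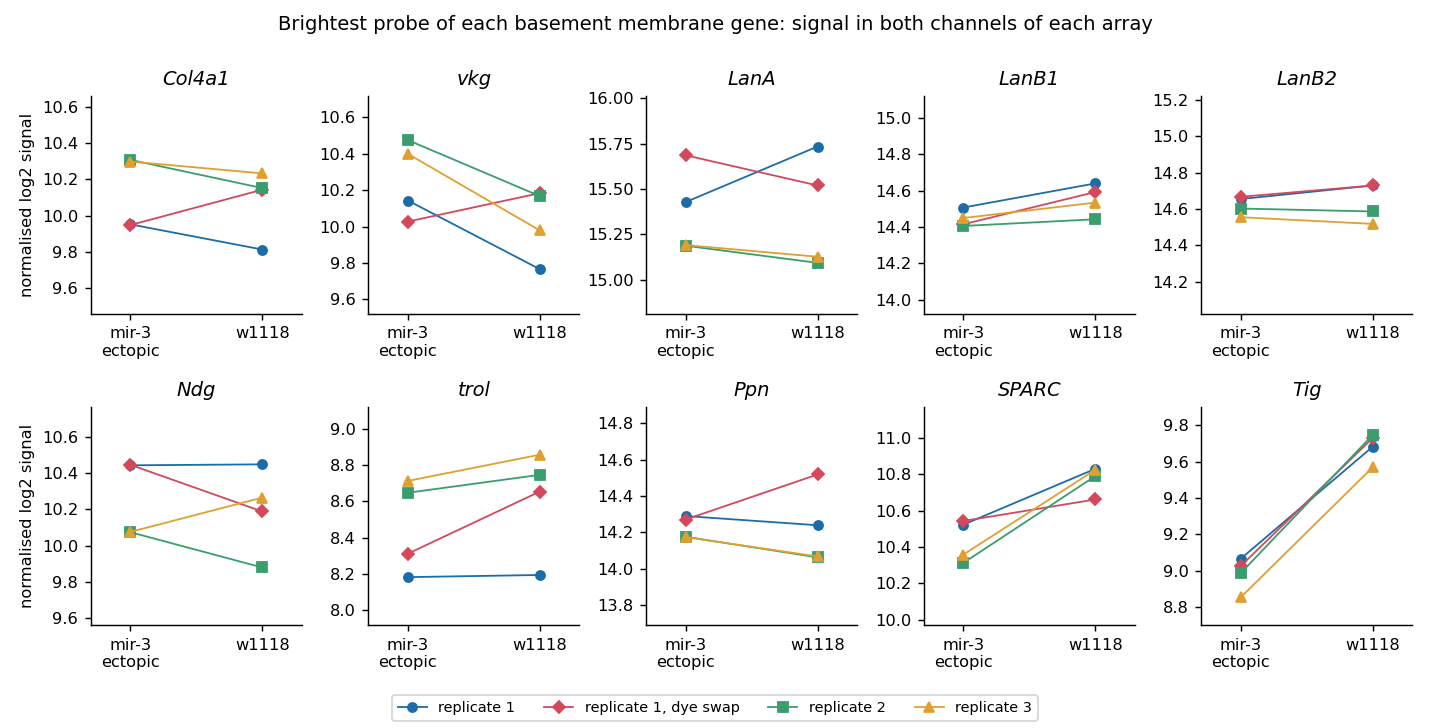
Normalised log2 signal (vertical axis, the same span in each panel) of the brightest probe of each gene, with mir-3 ectopic left and w1118 right and a line joining both channels of an array. All lines of *Tig* climb towards w1118, from 8.85 to 9.07 on the left and 9.57 to 9.75 on the right, and the dye-swap lines of *vkg*, *Col4a1* and *LanA* run against the other line of replicate 1.

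The laminin trimer of each basement membrane holds an alpha, a beta and a gamma chain, encoded by *LanA*, *LanB1* and *LanB2*. None of the 3 genes passed the test. *LanA* had log2 signals of 15.19 to 15.69 in mir-3 ectopic embryos and 15.09 to 15.73 in w1118. Its ratios were -0.31, 0.09 and 0.06 on the arrays of replicates 1, 2 and 3 and 0.17 on the dye swap, which gave 0.03 ± 0.09 (SD, n = 3; 95% interval -0.09 to 0.14; limma adjusted p = 0.648). The genotypes overlapped, and the sign of the ratio turned between the arrays of replicate 1.

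*LanB1*, the beta chain, was below 0 on every array, with ratios of -0.13, -0.04 and -0.08 on the arrays of replicates 1, 2 and 3 and -0.18 on the dye swap. Its mean of -0.09 ± 0.06 (95% interval -0.20 to 0.01; limma adjusted p = 0.128) did not pass, and its signals of 14.41 to 14.51 in mir-3 ectopic embryos overlapped those of 14.44 to 14.64 in w1118. With dye as a term it passed, at -0.13 (limma adjusted p = 0.0207), as did *Col4a1* at -0.13 (adjusted p = 0.0192). That fit takes the 4 arrays as independent, though 2 share the RNA of replicate 1, and it leans on 1 dye-swap array. *LanB2*, the gamma chain, gave -0.0051 ± 0.06 (95% interval -0.11 to 0.10; limma adjusted p = 0.933), with signals of 14.55 to 14.67 in mir-3 ectopic embryos and 14.52 to 14.73 in w1118. The interval of *LanB2* leaves room for a change of at most 1.08-fold lower or 1.07-fold higher.

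Between laminin chains, the ratio of *LanA* minus that of *LanB1* was 0.12 ± 0.03, that of *LanA* minus *LanB2* 0.03 ± 0.04 and that of *LanB1* minus *LanB2* -0.09 ± 0.03 (exact sign permutation p = 0.25, 0.5 and 0.25). *LanA* minus *LanB1* was -0.17 on the first array of replicate 1 and 0.34 on its dye swap. Replicates 2 and 3 gave 0.13 and 0.15. *LanA* minus *LanB2* was -0.23 and 0.23 on those arrays of replicate 1, with 0.08 and 0.03 in replicates 2 and 3. The small SDs of these differences thus rest on averaging arrays of replicate 1 that differed in sign. *LanB1* minus *LanB2* had the same sign on every array. *wb*, which encodes the fly's other laminin alpha chain, gave 0.04 ± 0.05 (SD, n = 3; limma adjusted p = 0.515). No laminin gene passed the test in either direction.

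*Ndg* encodes nidogen, which binds laminin and collagen IV. Its log2 signals were 10.44, 10.07 and 10.08 in mir-3 ectopic replicates 1, 2 and 3 (10.44 on the dye swap), against 10.45, 9.88 and 10.26 in w1118 (10.19 on the dye swap). The ratios were -0.0054, 0.19 and -0.19, and 0.26 on the dye swap, so the replicates did not share a sign. The mean was 0.04 ± 0.20 (95% interval -0.13 to 0.22; limma adjusted p = 0.66), and 95.6% of all genes had a smaller SD. A change within that interval was not detectable with 3 replicates.

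*Ppn* encodes papilin, a sulfated glycoprotein of the matrix. Its ratio was close to 0 on all arrays, at -0.0025, -0.04 and -0.06 on those of replicates 1, 2 and 3 and -0.09 on the dye swap, with a mean of -0.05 ± 0.01 (95% interval -0.15 to 0.05; limma adjusted p = 0.348). Its probes pulled apart: A_09_P045641 gave 0.04 ± 0.12 and A_09_P044201 -0.14 ± 0.12 (limma adjusted p over all probes 0.599 and 0.0856). Neither probe passed, and both had overlapping groups. The small SD of the gene is that of an average over probes that differ in sign on the dye-swap array and on the others.

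Probe by probe, 7 of the 17 kept probes fell (23.2% of all kept probes did), 1 rose (24.8% of all kept probes did), and 9 did not pass. The 7 are those of *Tig*, 4 of *trol*, and 1 each of *SPARC* and *Col4a1*. Probes of the same gene share their RNA and are not replicates. In 4 probes, those of *Tig*, A_09_P078681, A_09_P199345 and A_09_P122515, every mir-3 ectopic signal was below every w1118 signal, as in 13.6% of 19729 kept probes of the array with all values. In 0 of the 17 was every mir-3 ectopic signal above every w1118 signal, as in 16.4% of those of the array.

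**Figure D3:**
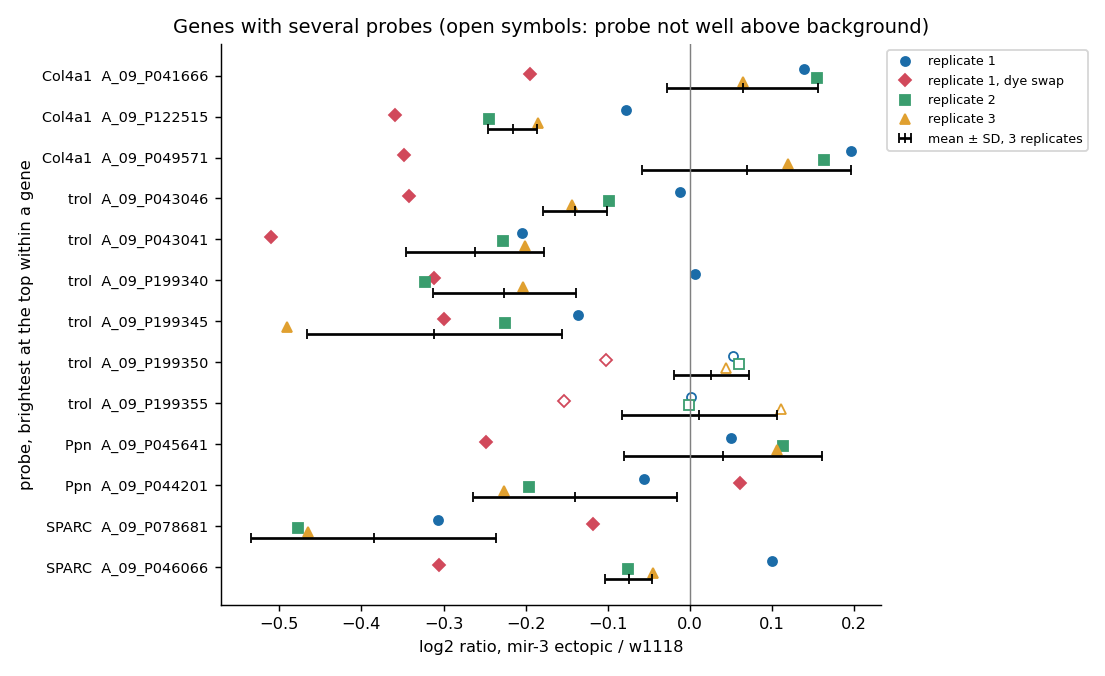
Log2 ratio of mir-3 ectopic over w1118 (horizontal axis) on each array for all probes of the 4 genes with several probes, with the mean and SD of 3 replicates in black; open symbols are probes that were not well above background. The *SPARC* probes have means of -0.39 and -0.07, those of *Col4a1* lie on both sides of 0, and the 4 kept *trol* probes have means between -0.31 and -0.14.

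Receptors and adhesion proteins bind cells to this matrix. Of 16 such genes, all measured, 6 rose (24.3% of all genes did), 2 fell (24.4%) and 8 did not pass. Their median ratio was 0.02. The 2 lower were 1 without replicate 2 or without replicate 3. *parvin* and *Ilk*, which form a complex on the cytoplasmic side of integrins, rose by 0.35 ± 0.04 and 0.32 ± 0.08 (limma adjusted p = 0.000659 and 0.00153). *if*, the alpha subunit of the PS2 integrin that binds tiggrin, fell, at -0.27 ± 0.04 (limma adjusted p = 0.00188). Named after their values were seen, *mys*, the beta subunit that pairs with it, gave 0.01 ± 0.08 and did not pass (limma adjusted p = 0.883). *mew*, the alpha subunit of the PS1 integrin, rose by 0.32 ± 0.15 (limma adjusted p = 0.00472). The ratio of *if* was below 0 on all 4 arrays. That of *mew* was 0.41, 0.39 and 0.41 on the arrays of replicates 1, 2 and 3 and -0.12 on the dye swap. Of the other genes called higher, *dlp* and *dally* were also below 0 on the dye swap, at -0.04 and -0.10. There *parvin*, *Ilk* and *stck* stayed above 0, at 0.16, 0.07 and 0.22.

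Of 20 genes for collagen modification and for secretion of matrix proteins, 16 were measured. Of these, 5 rose (24.3% of all genes did), 4 fell (24.4%) and 7 did not pass. The median was 0.02. The 4 lower were 1 without replicate 2 and 2 without replicate 3. *Plod*, the lysyl hydroxylase of collagen IV, rose by 0.47 ± 0.01 (limma adjusted p = 0.00014), and *Crag*, which directs basement membrane proteins to the basal side in follicle cells, rose by 0.47 ± 0.09 (adjusted p = 0.000309). *PH4alphaSG2*, a prolyl 4-hydroxylase subunit named for the salivary gland, fell, at -0.54 ± 0.01 (limma adjusted p = 7.45e-05). *Plod*, *Crag* and *PH4alphaSG2* kept their sign on all 4 arrays. For *Plod*, averaging replicate 1's arrays, at 0.58 and 0.35, gave the value close to those of replicates 2 and 3, 0.48 and 0.45.

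Of 16 genes for matrix remodelling, cross-linking and heparan sulfate synthesis, the test called 3 higher and 7 lower and left 6 uncalled (median -0.03). Over all genes, 24.3% were higher and 24.4% lower. The 7 lower were 4 without replicate 2 or without replicate 3. *Loxl2*, a lysyl oxidase, had the lowest ratio of the list. Its probe was not well above background on any array in mir-3 ectopic embryos and was on 4 of 4 in w1118, so only a bound holds. *Loxl2* was at least 2.23-fold lower, by its mean log2 w1118 signal against a bound for mir-3 ectopic RNA. On each array the bound was the higher of the mir-3 ectopic signal of *Loxl2* and the lowest well-above-background signal of mir-3 ectopic RNA. The limma test was of the ratio of *Loxl2* against 0 (adjusted p = 7.17e-06), and the bound was not tested. The enzymes *sfl* and *botv*, which act on heparan sulfate chains such as those of perlecan, moved in opposite directions: *sfl*, a sulfotransferase, fell, at -0.60 ± 0.06 and *botv*, a glycosyltransferase, rose by 0.56 ± 0.13 (limma adjusted p = 7.51e-05 and 0.000304).

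The other extracellular matrix list also holds growth factors and proteins of the cell membrane or linked to it. Of its 17 genes, 16 were measured. Of these, 3 were higher (24.3% of all genes were), 6 lower (24.4%) and 7 uncalled (median -0.04). The 3 higher were 1 without replicate 1 and 0 without replicate 2 or without replicate 3. *Glt* (glutactin), a secreted basement membrane glycoprotein, fell, at -0.67 ± 0.07, and *Pvf1*, a growth factor ligand of the PDGF and VEGF family, at -0.73 ± 0.10 (limma adjusted p = 4.59e-05 and 5.14e-05). *prc* (pericardin), a collagen-like protein of the heart, fell, at -0.37 ± 0.09 (limma adjusted p = 0.00098) and was well above background on 3 of 4 arrays in mir-3 ectopic embryos. With processed signals in place of the background correction used here, *prc* was at -1.12, and in the authors' deposited table, with its sign turned, at -1.10. The shares of all genes that rose and fell, 24.3% and 24.4%, are the background for each of these counts.

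**Figure D4:**
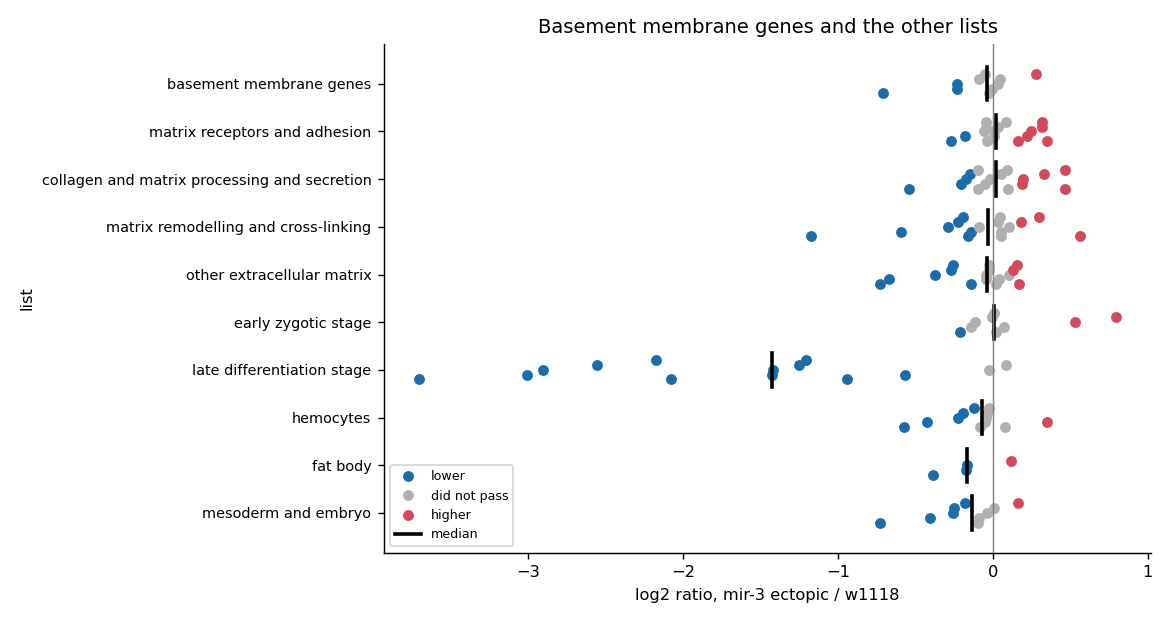
Log2 ratio of mir-3 ectopic over w1118 (horizontal axis) of each gene in the basement membrane group and in the other lists, coloured by whether it was higher, lower or did not pass, with the median of each list as a black bar. The basement membrane genes lie between -0.71 and 0.28, and the late differentiation list alone has a median far from 0, at -1.42.

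Genes of other cell types and of developmental stage moved between the same samples. Of 16 hemocyte genes, 12 were measured. Of these, 1 was higher (24.3% of all genes were), 5 were lower (24.4%) and 6 did not pass (median -0.07). The 5 lower were 3 without replicate 2 or without replicate 3. Their summed signal was 47159 to 50446 in mir-3 ectopic embryos and 51589 to 55070 in w1118. *PPO1*, a crystal cell prophenoloxidase, fell, at -0.57 ± 0.13 and *Rac2* at -0.43 ± 0.16, while *ush*, a Friend of GATA cofactor, rose by 0.35 ± 0.09 (limma adjusted p = 0.000235, 0.00157 and 0.00127). The markers *Hml*, *NimC1*, *eater* and *lz* had no kept probe, and 1 gene, *Pxn*, is also in the remodelling list.

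Of 8 fat body genes, 4 were measured, with 1 higher (24.3% of all genes were), 3 lower (24.4%) and a median of -0.17. The 3 lower were 1 without replicate 2 or without replicate 3, and the 1 higher was 0 with any replicate left out. *Adh*, *apolpp* (the lipophorin precursor) and *svp*, a nuclear receptor, had ratios of -0.39 ± 0.04, -0.17 ± 0.02 and -0.17 ± 0.12 (limma adjusted p = 0.000373, 0.0131 and 0.0338). Of 15 other ways of processing, 7 lost the call on *apolpp* and 8 that on *svp*, whose sign turned in 1 more. The probes of *Adh* disagreed, with 2 of 4 lower at -0.97 and -0.70 and the others at 0.03 and 0.08, as did those of *svp*, between -0.38 and 0.03. The summed signal was 58283 to 68146 in mir-3 ectopic embryos and 63677 to 79280 in w1118. *Fbp1*, *Fbp2*, *Lsp1alpha* and *Lsp2* had no kept probe.

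The late differentiation list was chosen from earlier results of these samples and is no independent evidence of its direction. It had 12 of 14 genes lower (24.4% of all genes were), 0 higher (24.3%) and 2 that did not pass, at a median of -1.42. Its summed signal was 10585 to 11439 in mir-3 ectopic embryos, against 24982 to 28864 in w1118, without overlap. The cuticle genes *TwdlD*, *TwdlL* and *TwdlG* had ratios of -3.71 ± 0.07, -2.90 ± 0.03 and -2.56 ± 0.07 (limma adjusted p = 5.66e-08, 6.54e-08 and 1.35e-07). In mir-3 ectopic embryos *TwdlD* was well above background on 3 of 4 arrays, and the probes of *TwdlG* on 1 of 4, so the sizes of these ratios lean on signals near background. With processed signals *TwdlD*, *TwdlL* and *TwdlG* were at -5.96, -5.17 and -5.91.

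Of 12 early zygotic genes, 9 were measured. Of these, 2 were higher (24.3% of all genes were), 1 was lower (24.4%) and 6 did not pass (median 0.0048). The 1 lower was 3 without replicate 1 and 0 without replicate 2. *slam* and *Sry-alpha*, which act in cellularization, rose by 0.80 ± 0.10 and 0.53 ± 0.08, and *sc* fell, at -0.21 ± 0.08 (limma adjusted p = 3.91e-05, 0.000154 and 0.0103). All of 10 mesoderm and embryo genes were measured in these embryos. Of these, 1 was higher (24.3% of all genes were), 5 were lower (24.4%) and 4 did not pass (median -0.14). The 1 higher was 0 without replicate 2 or without replicate 3. *Doc1*, a T-box factor, fell, at -0.41 ± 0.09 and *en*, a segment polarity factor, at -0.25 ± 0.05 (limma adjusted p = 0.000646 and 0.00319). The part of developmental stage, hemocyte content and fat body content in the ratios of *Tig*, *SPARC*, *trol* and *vkg* was not tested.

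Across the 4 arrays, 8, 5 and 7 of the 10 basement membrane genes were below 0 on those of replicates 1, 2 and 3 and 8 on the dye swap, where 45.8, 51.6, 49.8 and 51.4% of all genes were. Only 5 genes, *Tig*, *SPARC*, *trol*, *LanB1* and *Ppn*, had the same sign on every array. Over replicates, the median SD of the 10 genes was 0.06, against 0.07 over all genes.

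With 15 other ways of processing the arrays, *Tig* stayed between -0.77 and -0.69 and passed the test in all but 1. *SPARC* stayed between -0.39 and -0.21 and *trol* between -0.37 and -0.14, each passing in all but 3. *vkg* ranged from 0.11 to 0.37 and lost its call in 8. With median centring of each array in place of loess, none of the 10 genes passed, and few genes of the array did, 58 lower and 24 higher. Within the slide of replicates 2 and 3, *Tig* was at -0.74, *SPARC* at -0.27 and *trol* at -0.24 (limma adjusted p = 2.11e-05, 0.00198 and 0.00341). The other slide holds 1 replicate. The direction of *Tig*, *SPARC*, *trol*, *vkg* and *LanB1* was the same under all 15.

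**Figure D5:**
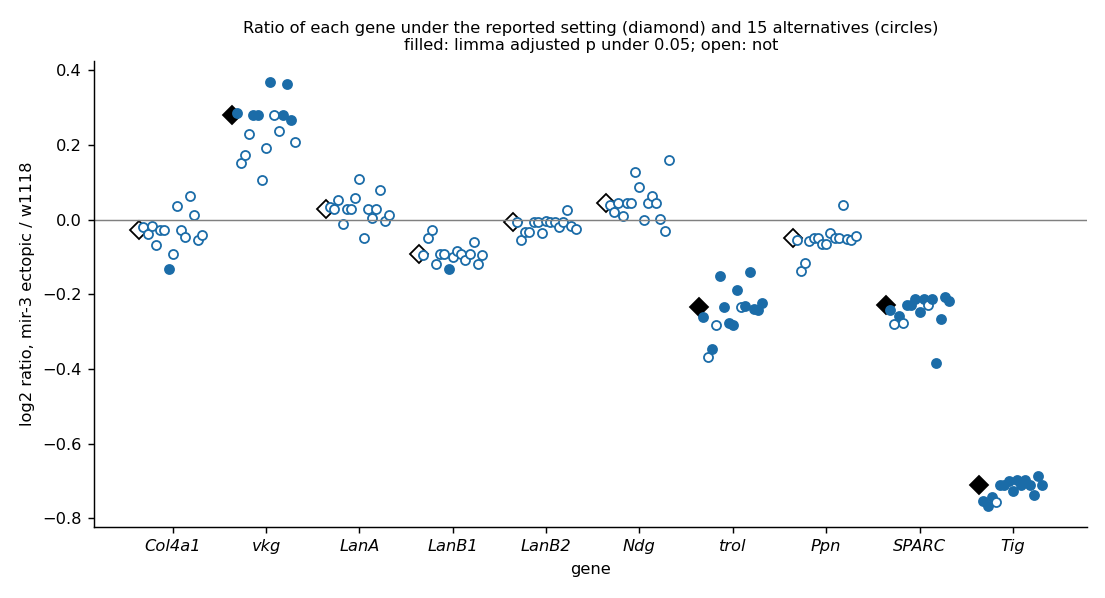
Log2 ratio of mir-3 ectopic over w1118 (vertical axis) of each gene as reported (diamond) and under 15 alternatives (circles), filled where limma's adjusted p was under 0.05. *Tig* lies between -0.77 and -0.69 under all of them, with 1 open circle. *vkg* spans 0.11 to 0.37 with many open circles, and *Col4a1* and *LanA* fall on both sides of 0.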

How the data were processed

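RNA of mir-3 ectopic and w1118 embryos was measured on 4 Agilent arrays, scanned with Feature Extraction 10.1.1.1, per the file headers. The deposited scanner files hold spot intensity (median foreground and local background), processed signals and flags. The authors' deposited value table holds log2 ratios that equal those of the processed signals, Cy5 over Cy3, sign reversed for the dye swap, within 2.85e-06. They are not centred, with medians of -0.11, -0.07 and 0.11 for replicates 1, 2 and 3 and -0.15 for the dye swap. By the labelled dyes the table is w1118 over mir-3 ectopic.

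Background was corrected with normexp (offset 50) and dyes were normalised by loess with control spots at weight 0, in limma 3.58.1 (R 4.3.3, statmod 1.5.0). The foreground and background intensities used were medians. Outlier-flagged spots (107, 121 and 173 on the arrays of replicates 1, 2 and 3, 157 on the dye swap) were left out and spots of a probe averaged. A probe was kept if well above background for at least 1 genotype on at least 3 of 4 arrays. Ratios were tested with lmFit and eBayes. Levels are channel values after loess and Aquantile scaling. Precision is limited by the number of arrays. A RefSeq table (assembly Release 6 plus ISO1 MT) named 18121 probes through their locus tag, 1155 through an older tag, 154 through a synonym and 115 through an accession; 12617 stayed as the files call them. That assembly is not the files' build, so no coordinates are given, and no genome sequence was used here. A fat body entry that is a synonym of *Col4a1* was dropped.

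Both channels of an array share its replicate number and its hybridisation, so the ratio pairs them. Named are all 10 genes with their probes, the 3 genes with the smallest p of each other list, *tin* and *Mef2*. *wb*, *mys*, *mew*, *dlp*, *dally* and *stck* were named in addition. The genes and lists were chosen with earlier results of these data known. Alternatives changed the background correction, normalisation, dim filter, dye handling, pairing, slide, replicates and choice of probe. With dye as a term, the 4 arrays were fitted as independent, without a replicate block. The fit was also run on simulated ratios of 3 replicates, drawn without a dye effect, so that run says nothing on dye handling.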

Additional observations from a re-analysis of the deposited data

How the results depend on the processing

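Of the counts of the 10 genes, 3 lower became 1 with processed signals, 0 with median centring, 5 with dye as a term and 1 with unpaired channels (no replicate block), and stayed 3 when any replicate was left out. The 1 higher became 0 with processed signals, the authors' value table, median centring, dye as a term, replicate 1 from its dye swap only, unpaired channels and the slide as a random block, and was 0 to 1 with a replicate left out (0 without replicate 3). Of probes, 7 lower became 4 with processed signals, 0 with median centring and 4 with unpaired channels, and was 4 to 7 with a replicate left out (4 without replicate 2). The 1 higher probe became 3 with replicate 1 without its dye-swap array, 0 in the same 7 alternatives as for genes, and 0 to 2 with a replicate left out (2 without replicate 1, 0 without replicate 3). Calls lost without the pairing of channels were *vkg*, *trol* and *SPARC* (limma adjusted p = 0.0924, 0.0971 and 0.0502). *trol* and *SPARC* also lost theirs with processed signals (-0.37 and -0.28, adjusted p = 0.0514 and 0.157) and median centring (-0.28 each). *Tig* lost its call with median centring alone (-0.76, adjusted p = 0.471). *trol* was -0.15 without the dim filter, which takes in its background-level probes, and -0.14 by its brightest probe, where *SPARC* was -0.39. Signs turned only in genes that did not pass, and in *svp*: *Col4a1* was 0.037 without the dye-swap array, 0.064 by its brightest probe and -0.054 to 0.012 with a replicate left out. *LanA* was -0.012 with median centring, -0.049 without the dye-swap array and -0.0029 to 0.079 with a replicate left out. *LanB2* was -0.026 to 0.026 and *Ndg* -0.031 to 0.16 with a replicate left out. By the brightest probe *Ppn* was 0.040 and *svp* 0.029. Among list genes, the calls on *Ilk*, *Mef2*, *sc*, *svp*, *apolpp*, *parvin*, *ush* and *en* were lost with processed signals, those on *Ilk*, *Mef2*, *svp*, *apolpp*, *Doc1* and *Rac2* unpaired, and that on *sc* without replicate 2. With median centring, 6 late differentiation genes were lower and no other list gene passed. With processed signals the lists of receptors, processing, remodelling, hemocytes and fat body had 0, 3, 1, 0 and 0 higher and 1, 1, 4, 2 and 1 lower. The cause was not tested. Over all genes, 3608 higher and 3630 lower became 2194 and 1887 with processed signals, 24 and 58 with median centring, 2368 and 2070 unpaired, 2223 and 2088 with replicate 1 from its dye swap only, 2724 and 2397 without replicate 2, and 2524 and 2225 without replicate 3. Each gene rests on 3 replicates, 6 of the 10 on 1 probe, and ratios of the dim *trol* probes are held towards 0 by the offset.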
